A study of Mus musculus with 8 samples.

Results

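Genes that encode plasma apolipoproteins, Apoa1, Apoa2, Apoa4, Apoa5, Apob, Apoc1, Apoc2, Apoc3, Apoe and Apom, were examined as a group in the liver of aged obese female mice. They were chosen by name. All 10 of 10 were found among the 56884 genes of the count tables, and 9 of them passed the filter on low counts. The animals were 18-month-old C57BL/6J mice. All of them received, from 2 months of age, a diet rich in saturated fat (45% of energy from lipids), and after 4 months they were split. The DIO group (diet-induced obese, 3 libraries, numbered 1, 4 and 5) stayed on that diet. The DIO + DHA group (5 libraries, numbered 1, 2, 4, 5 and 6) received the same diet with 15% by weight of its lipids replaced by a fish oil concentrate. The concentrate held 683.4 mg of docosahexaenoic acid (DHA), 46.7 mg of eicosapentaenoic acid and 838.9 mg of n-3 fatty acids in all per gram. No lean group enters the comparison, and every library carries the same batch number.

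Apolipoproteins are the protein part of lipoproteins, the particles that carry triglycerides and cholesterol in blood, and the liver is a main source of most of them. Apolipoprotein B is the structural protein of very low density lipoproteins (VLDL), and apolipoproteins A-I and A-II are the main proteins of high density lipoproteins (HDL). Several of the others exchange between particles, where C-III slows and A-V and C-II promote triglyceride hydrolysis by lipoprotein lipase, and apolipoprotein E is a ligand of the receptors that clear remnants.

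Of the 10 genes, 7 lie in a pair of gene clusters. In the GRCm39 build, Apoa1, Apoc3, Apoa4 and Apoa5 occupy chr9:46139878-46183217, a span of 43.3 kb, with Apoc3 on the minus strand and the other 3 on the plus strand. Apoc2, Apoc1 and Apoe occupy chr7:19405504-19433113, a span of 27.6 kb, all on the minus strand. Apoa2 is at chr1:171052623-171053948 (plus strand), Apob at chr12:8027648-8066835 (plus strand) and Apom at chr17:35347973-35351026 (minus strand).

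Because the 4 genes of the chromosome 9 cluster were all higher with DHA, the sequences just before the transcription starts of Apoa1 and Apoa4 are shown, with a short stretch before that of Apoc3. Each is read 5′ to 3′ on the gene's own strand from GRCm39. Apoa1 is chr9:46139628-46139877 (plus strand), Apoa4 is chr9:46151744-46151993 (plus strand), and the 30 bases of Apoc3 are chr9:46146605-46146634 (minus strand). Capitals mark the letters TATAAA (searched on the gene's strand) and AGGTCA (a half-site of nuclear receptors, searched on both strands).
Apoa1: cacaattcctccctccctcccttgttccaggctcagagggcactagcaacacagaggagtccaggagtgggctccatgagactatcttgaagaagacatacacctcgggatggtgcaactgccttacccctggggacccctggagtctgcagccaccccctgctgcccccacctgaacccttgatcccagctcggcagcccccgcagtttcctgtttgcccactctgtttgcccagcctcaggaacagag
Apoa4: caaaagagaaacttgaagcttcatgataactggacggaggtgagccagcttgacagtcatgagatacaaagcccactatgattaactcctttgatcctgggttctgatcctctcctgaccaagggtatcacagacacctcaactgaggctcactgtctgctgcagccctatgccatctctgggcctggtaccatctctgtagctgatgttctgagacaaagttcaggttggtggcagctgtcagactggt
Apoc3: ggagccaaTATAAAacAGGTCAcagccctc

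In the 250 bases before the start of the canonical transcript, the window of Apoc3 held both marked motifs, the half-site in 2 copies, while those of Apoa1 and Apoa4 held neither. Over the 10 members, the half-site was in the window of 1 gene and the TATA letters in that of 4 (Apoc3, Apoa5, Apoa2 and Apob). Over 21770 protein-coding genes, 13.1% of such windows held the half-site and 8.03% the TATA letters. A half-site of CREB and ATF factors, TGACG, searched on both strands, was in 2 members (Apoa2 and Apob) and in 18.0% of all windows. A core of sites bound by HNF4, CAAAGTCCA, also searched on both strands, was found in no member and in 0.372% of all windows. Only exact matches to these letters were sought. A window without a match can still hold a variant site, so the absence of a factor's sites is not shown. No stretch of a member matched more than 1 of these motifs. The stretch shown for Apoc3 lies inside an exon of another annotated Apoc3 transcript. The starts came from a later annotation than the counts. For Apoe the start used (19433886) lies outside the gene as counted, which starts at 19433113. For Apoc2 it (19410957) lies inside the gene as counted, which starts at 19411866. The windows of these genes may not hold the promoter in use, so the absence of motifs there is uncertain.

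The libraries held between 1723800 and 5690347 counts (median 4495644), and DIO replicate 1 was the shallowest. Markers of hepatocytes were abundant, between 119122 and 136503 CPM summed over 15 genes, of which 3 were higher and 3 lower in DIO + DHA. CPM are counts relative to the library's size after TMM scaling. Markers of other cell types differed between the groups. All 15 skeletal muscle markers were higher in DIO + DHA (summed level 1362 to 1452 CPM against 39.9 to 44.7 CPM in DIO), as were 7 of 8 tested adipocyte markers (199 to 228 CPM against 60.7 to 70.3 CPM). Of 22 macrophage and Kupffer cell markers 17 were lower and 1 higher (744 to 786 CPM against 1272 to 1377 CPM). In bulk tissue, fewer cells of a type and less RNA per cell cannot be told apart. Where the muscle and adipocyte transcripts came from was not tested.

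Tested across 12412 genes with the quasi-likelihood test of edgeR and a Benjamini-Hochberg adjusted p under 0.05, 5 of the 9 measured apolipoprotein genes were higher in DIO + DHA, 1 was lower and 3 did not pass. Apoa4 was higher 3.0-fold, Apoa1 1.43-fold, Apoc3 1.22-fold, Apoa5 1.17-fold and Apoa2 1.1-fold, and Apoe was at 0.89 of its DIO level. Among all tested genes, 15.2% were called, 7.89% higher and 7.28% lower. The members are abundant, and abundant genes were called more often: of 439 genes averaging 300 CPM or more, which takes in all 9 members, 47.4% were called and 26.2% were called higher. The median log2 fold change was 0.23 over the 9 members, 0.07 over those 439 genes and 0.00 over all tested genes. The groups did not overlap for 5 of the 9 members (Apoa1, Apoa4, Apoc3, Apoe and, narrowly, Apom), against 18.4% of all tested genes and 49.0% of the abundant ones. Relative to library size without TMM scaling, the number of members was 4. By the empirical Bayes statistic of limma-voom (B above 0), 4 members passed (Apoa1, Apoa4, Apoc3 and Apoe) against 6.93% of all tested genes. The share of the abundant genes that passed by B was not computed, so abundance is not allowed for there.

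**Figure D1:**
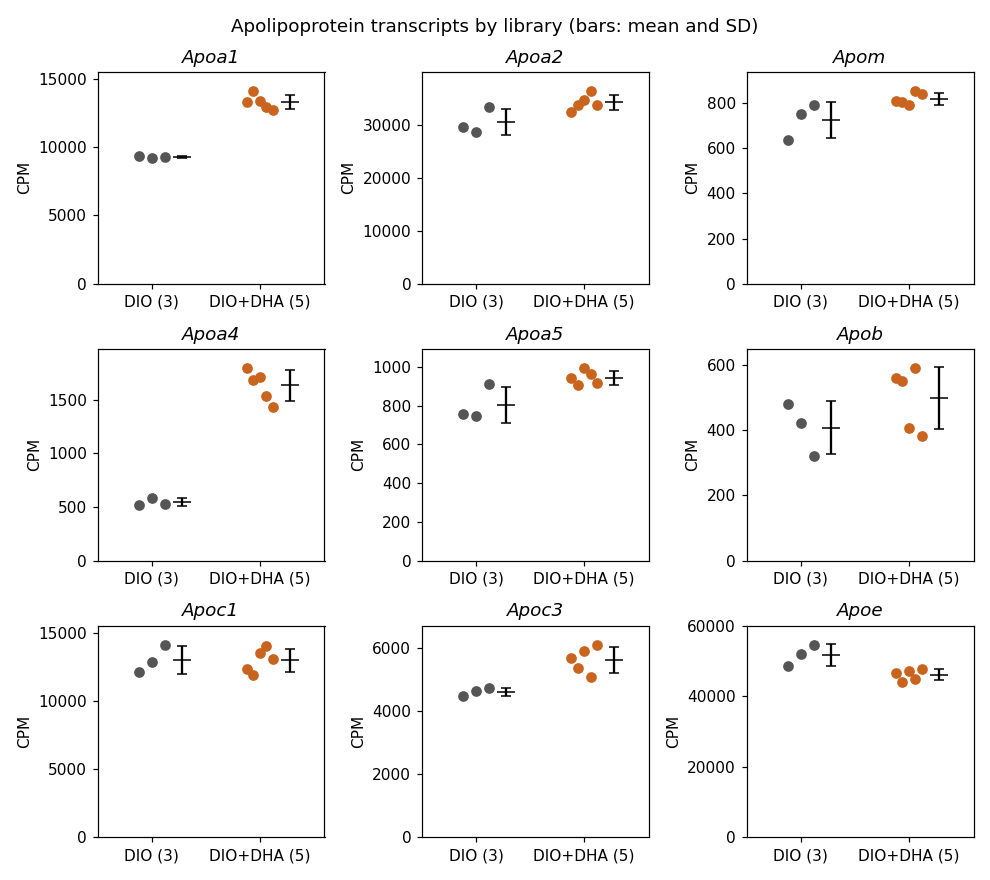
CPM of the 9 measured apolipoprotein genes in each library (points, DIO grey, DIO + DHA orange), with the mean and SD of each group beside the points and each vertical axis starting at 0. Apoa1, Apoa4 and Apoc3 were higher in all 5 DIO + DHA libraries than in all 3 DIO libraries, Apoe was lower in all 5, and for Apoc1 and Apob the groups overlap.

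Apoa1 encodes the main protein of HDL and the activator of the cholesterol-esterifying enzyme LCAT. Its level was 9340, 9201 and 9320 CPM in DIO replicates 1, 4 and 5, and 13319, 14110, 13414, 12976 and 12759 CPM in DIO + DHA replicates 1, 2, 4, 5 and 6. The 3 DIO libraries lay close together and every DIO + DHA library was above them. The means were 9287 ± 75.5 CPM (SD, n = 3) and 13316 ± 516 CPM (SD, n = 5). This was a log2 fold change of 0.52 ± 0.06 (SE, edgeR adjusted p = 8.1e-11). The change passed under each of the 11 other settings, some of which change only the criterion for a call. It also passed in each of the 8 fits that left out 1 library.

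Apoa2 encodes the second protein of HDL. Its level was 29471, 28635 and 33356 CPM in DIO and 32469, 33784, 34696, 36325 and 33706 CPM in DIO + DHA. DIO replicate 5 was above 1 of the DIO + DHA libraries, so the groups overlapped. The log2 fold change of 0.17 ± 0.06 (SE) passed in the fit to all libraries (edgeR adjusted p = 0.0358). The call was lost, with edgeR adjusted p-values of 0.131, 0.241, 0.0624, 0.123 and 0.121, when DIO replicate 1, DIO replicate 4 and DIO + DHA replicates 2, 4 and 5 were left out in turn, and with the Wald test of DESeq2 (adjusted p = 0.106).

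Apom encodes the HDL protein that carries sphingosine 1-phosphate. Its level was 635, 751 and 790 CPM in DIO and 807, 802, 790, 852 and 841 CPM in DIO + DHA. The highest DIO and the lowest DIO + DHA library were the same to 3 digits. The log2 fold change was 0.17 ± 0.07 (SE, edgeR adjusted p = 0.0798), with a 95% interval of 0.04 to 0.30 before adjustment. The value rested on single DIO libraries. It was 0.09 without DIO replicate 1 (edgeR adjusted p = 0.502) and 0.25 without DIO replicate 5 (edgeR adjusted p = 0.015), where it passed.

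Apoa4, an apolipoprotein of triglyceride-rich particles and HDL that the intestine and, in mice, the liver make, had the largest log2 fold change of the 9 members. Its level was 515, 585 and 530 CPM in DIO and 1797, 1687, 1716, 1540 and 1437 CPM in DIO + DHA. The lowest DIO + DHA library stood far above the highest DIO library. The means were 543 ± 36.5 CPM (SD, n = 3) and 1635 ± 145 CPM (SD, n = 5). This log2 fold change of 1.59 ± 0.07 (SE, edgeR adjusted p = 7.5e-26) passed in every fit run. In the annotation of the count tables, 69.75% of the exon bases of Apoa4 are shared with antisense genes (Gm47528 and Gm10680), including 112 of the last 300. The counting command in the file headers sets no option for strand or for overlapping genes. With the defaults of featureCounts, reads from sense and antisense transcripts cannot be told apart and reads that overlap both genes are not assigned. Gm47528 held at most 6 counts in a library and Gm10680 held 0. Of 14 enterocyte markers, 4 were tested and 7 had no count in any library, Sis, Lct, Alpi, Cdx1 and Cdx2 among them, and Vil1 had 2 counts in all. The 2 of those tested that were higher, Fabp2 and Mttp, are also liver genes.

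Apoa5, which promotes lipoprotein lipase activity, was at 754, 747 and 911 CPM in DIO and at 941, 907, 994, 961 and 915 CPM in DIO + DHA. DIO replicate 5 was above DIO + DHA replicate 2. With DHA, Apoa5 had a log2 fold change of 0.23 ± 0.07 (SE, edgeR adjusted p = 0.0117). The call was lost without DIO replicate 1 (edgeR adjusted p = 0.0799), DIO replicate 4 (0.131) or DIO + DHA replicate 4 (0.0608). Antisense Gm47544 shares 20.78% of its exon bases, none of them in the last 300, and held 0 counts.

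Apob was at 480, 420 and 320 CPM in DIO and at 559, 551, 406, 590 and 383 CPM in DIO + DHA. The groups overlapped, and the libraries of one group differed from each other more than for any other member, with a coefficient of variation of 19.9% in DIO and 19.2% in DIO + DHA. Counting error alone, taken as the inverse square root of the count, gives 2.62% and 2.34%. The log2 fold change was 0.31 ± 0.21 (SE, edgeR adjusted p = 0.446), with a 95% interval of -0.10 to 0.72. It was 0.17 without DIO replicate 5 and 0.44 without DIO replicate 1 (edgeR adjusted p = 0.776 and 0.379). The adjusted p of limma-voom was 0.0411, so the call rests on the tool.

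Apoc3 encodes an inhibitor of triglyceride clearance. Its level was 4478, 4626 and 4737 CPM in DIO and 5679, 5355, 5911, 5088 and 6103 CPM in DIO + DHA. All DIO + DHA libraries were above all DIO libraries. Apoc3 had a log2 fold change of 0.29 ± 0.06 (SE, edgeR adjusted p = 3.1e-04), and it passed in every fit run. Apoc1, an inhibitor of lipoprotein uptake, was at 12138, 12882 and 14151 CPM in DIO and at 12402, 11949, 13568, 14054 and 13082 CPM in DIO + DHA. Its groups overlapped across nearly all of their range, with a log2 fold change of -0.01 ± 0.06 (SE, edgeR adjusted p = 0.968) and a 95% interval of -0.12 to 0.11.

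Apoc2 encodes the activator of lipoprotein lipase and is known as an abundant liver transcript, yet it held 0, 2 and 0 counts in DIO and 1, 1, 1, 0 and 0 counts in DIO + DHA. No fold change is given, since every library was under the 5 counts of the filter and the gene was dropped. In the annotation used for counting, 79.46% of its exon bases, and 295 of the last 300, are shared with the readthrough gene Apoc2l, which held 0 counts in every library. Reads in bases shared by a pair of genes are left unassigned by the counting used, and the libraries are enriched for the ends of transcripts. The level of Apoc2 is therefore not measured by these counts. Apoc4, the neighbour of Apoc2 on the same strand, was at 4736 ± 593 CPM in DIO (SD, n = 3) and 4899 ± 314 CPM in DIO + DHA (SD, n = 5), a log2 fold change of 0.05 ± 0.06 (SE, edgeR adjusted p = 0.719).

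Apoe had the most counts of any gene in 7 of the 8 libraries and was second in the other one. Its level was 48537, 52018 and 54663 CPM in DIO and 46526, 44149, 47324, 44817 and 47903 CPM in DIO + DHA. Every DIO + DHA library was below every DIO library. The means were 51739 ± 3072 CPM (SD, n = 3) and 46144 ± 1610 CPM (SD, n = 5). The log2 fold change was -0.17 ± 0.05 (SE, edgeR adjusted p = 0.0265). The call was lost when DIO replicates 4 and 5 and DIO + DHA replicates 1, 2 and 5 were left out in turn, with edgeR adjusted p-values of 0.13, 0.194, 0.0584, 0.0726 and 0.058, and with DESeq2 (0.0627). Without DIO replicate 5 the log2 fold change was -0.11. Macrophages also make Apoe, and the summed level of their markers was lower in DIO + DHA, as given above. The part of those cells in the Apoe level was not tested.

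Per kilobase of merged exon, which is a rough scale for libraries enriched for transcript ends, the order of levels in DIO was Apoa2, Apoe, Apoc1, Apoa1, Apoc3, Apom, Apoa5, Apoa4 and Apob. Apoa2 stood at 56773 ± 4692 CPM per kb and Apob at 29.2 ± 5.81 CPM per kb (SD, n = 3). Apoa5 (296 to 361 CPM per kb) and Apoa4 (284 to 322 CPM per kb) overlapped, and no other neighbours in that order did. In DIO + DHA the first 5 were in the same order, and Apoa4 was sixth at 901 ± 79.8 CPM per kb (SD, n = 5). There its range of 791 to 990 CPM per kb overlapped that of Apom (780 to 841 CPM per kb), and no other neighbours overlapped. The exon length used here includes the bases shared with antisense genes, 69.75% for Apoa4 and 20.78% for Apoa5. Reads that overlap both genes are not assigned, so this scale can understate Apoa4 and Apoa5. Their places in the order are uncertain in both groups.

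The 10 genes took 11.3 ± 0.443% of all counts in DIO (SD, n = 3) and 11.5 ± 0.243% in DIO + DHA (SD, n = 5), with no test of this sum. The difference of 0.268 percentage points moved to 0.125, 0.156 and 0.524 without DIO replicates 1, 4 and 5, and to 0.453 relative to TMM library sizes. Without Apoe, the other genes took 6.04 ± 0.28% in DIO and 6.95 ± 0.261% in DIO + DHA. Apoe and Apoa2 together made 73.6 ± 0.418% of the members' counts in DIO and 69.1 ± 0.336% in DIO + DHA.

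**Figure D2:**
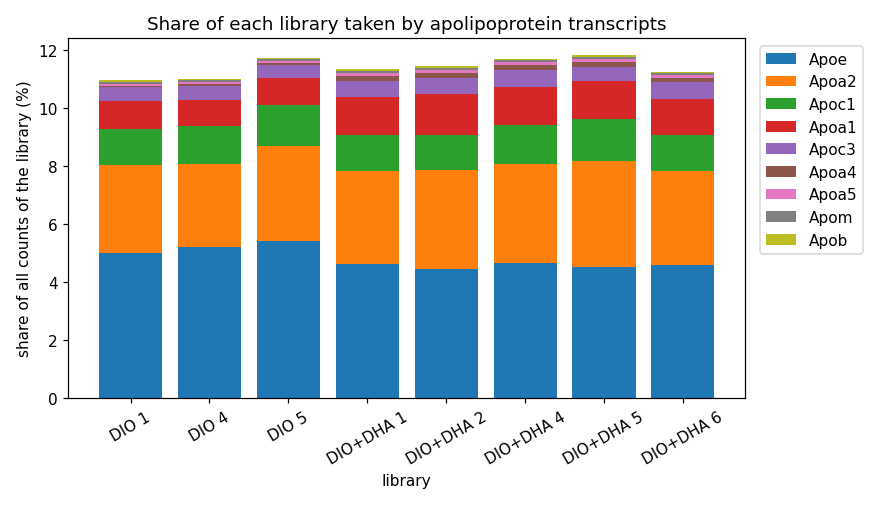
Share of all counts in percent (vertical axis) taken by each apolipoprotein gene, stacked for each of the 8 libraries. The total lies between 11% and 11.8% in every library, while the Apoa1 part is at most 0.963% in DIO and at least 1.23% in DIO + DHA and the Apoe part is above 5% in each DIO library only.

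Ratios of members within a library do not depend on the scaling between libraries. The log2 ratio of Apoa4 to Apoa1 was -4.18, -3.98 and -4.14 in DIO and -2.89, -3.06, -2.97, -3.08 and -3.15 in DIO + DHA. Every DIO + DHA library was above every DIO library, a difference of 1.07, with p = 0.0179 by a two-sided exact permutation test. No smaller p is possible with 3 against 5 libraries. The log2 ratio of Apoa5 to Apoa1 was lower in every DIO + DHA library by a mean difference of -0.28 (exact permutation p = 0.0179). Apoc3 to Apoa1 differed by -0.24 and Apoc1 to Apoe by 0.16 (exact permutation p = 0.0536 for each). The groups did not overlap in these ratios either, though only narrowly for Apoc3 to Apoa1. There DIO replicate 1 had 47.9 and DIO + DHA replicate 6 had 47.8 Apoc3 counts per 100 of Apoa1. The test compares group means, so groups that do not overlap can have a p above the smallest possible. Of 6 planned ratios, 2 involved Apoc2 and could not be computed. Adjusted over the 6, with those not computed entered at the largest possible p, no ratio passed. The adjusted exact permutation p-values were 0.0536, 0.0536, 0.0804 and 0.0804 in the order given. Since no p under 0.0179 is possible, 2 ratios at that value cannot pass over 6 unless another reaches it. The result therefore does not show that the ratios are unchanged. Adjusted over the 4 that were computed, a choice made after the data were seen, Apoa4 to Apoa1 and Apoa5 to Apoa1 passed (0.0357 each) and the other two did not (0.0536 each).

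The genes next to the clusters were measured in the same fit, in which 15.2% of all tested genes were called. Within 250 kb of the chromosome 9 cluster 3 other genes were tested (Sik3, Zpr1 and Bud13), and none was called. Their means lay between 3.51 and 44.5 CPM, below every member, with SEs of 0.11 to 0.30. A change as small as that of Apoa5 (0.23 ± 0.07, SE) could be missed there. Sik3 had a log2 fold change of 0.25 ± 0.16 (SE, edgeR adjusted p = 0.326). Its groups did not overlap, as for 18.4% of all tested genes. Within 250 kb of the chromosome 7 cluster 16 were tested and 1 was called. It was Bcl3, a regulator of NF-kappaB, at 41.9 ± 5.99 CPM in DIO (SD, n = 3) and 28.4 ± 3.32 CPM in DIO + DHA (SD, n = 5), a log2 fold change of -0.52 ± 0.12 (SE, edgeR adjusted p = 0.001). All 4 members of the chromosome 9 cluster were called higher, and of the 2 measured members of the chromosome 7 cluster Apoe was called lower and Apoc1 was not called.

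**Figure D3:**
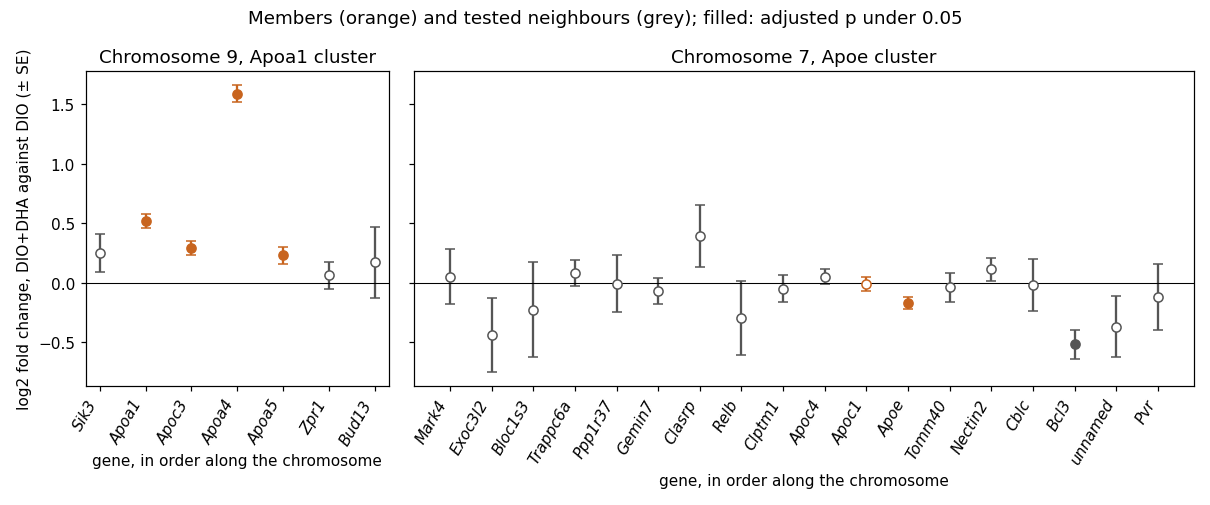
Log2 fold change of DIO + DHA against DIO (vertical axis, ± SE) for members (orange) and tested neighbours within 250 kb (grey), in order along each chromosome, filled where the edgeR adjusted p was under 0.05. The 4 filled orange points on chromosome 9 lie between 0.23 and 1.59, and on chromosome 7 only Apoe and Bcl3 are filled.

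Genes with the profile most like that of Apoa4 over the 8 libraries, by the root mean square difference of centred log2 CPM among 2128 genes of at least 50 CPM, were H1f2 (0.138), a linker histone, Hamp (0.149), the iron hormone hepcidin, and Igfbp2 (0.155), a binding protein of insulin-like growth factors. Those most like Apoe were Gstt1 (0.032), Gulo (0.034) and Park7 (0.035).

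Of the other genes listed as apolipoproteins, more were lower than higher. The list also takes in a receptor and a lipid transfer protein, which are not apolipoproteins. Of 22 listed, 16 were tested, 1 was higher and 7 were lower, against 7.89% and 7.28% of all tested genes. Among the 439 genes averaging 300 CPM or more, 93 were called lower. The median log2 fold change of the list was -0.27. The largest decreases were in the serum amyloid A genes, which encode apolipoproteins of HDL. Saa1 was at 3185 ± 105 CPM in DIO (SD, n = 3) and 793 ± 60 CPM in DIO + DHA (SD, n = 5), a log2 fold change of -2.01 ± 0.06 (SE, edgeR adjusted p = 1.5e-33). Saa2 (log2 fold change -1.88) and Saa4 (-1.49) were lower as well, though Saa1 and Saa2 are near-identical and the split of reads between them is uncertain. Apol9b was lower by a log2 fold change of -0.59. The gene that was higher, Apol6, averaged 0.0591 CPM in DIO and 1.68 CPM in DIO + DHA, near the limit of detection. Apoc4 and Apoh (-0.04, edgeR adjusted p = 0.712), the most abundant of those not called, differed by less than the spread between libraries.

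Of 36 genes of apolipoprotein B assembly and secretion 35 were tested. Of these 4 were higher and 6 lower, against 7.89% and 7.28% of all tested genes. The median log2 fold change of the list was -0.04. Mttp, which loads lipid onto apolipoprotein B, was at 68.1 ± 4.21 CPM in DIO (SD, n = 3) and 105 ± 5.53 CPM in DIO + DHA (SD, n = 5), a log2 fold change of 0.63 ± 0.09 (SE, edgeR adjusted p = 7.8e-08). Acsl1, an acyl-CoA synthetase, was higher (0.40), while Dgat2 (-0.44), the last enzyme of triglyceride synthesis, and Lpin1 (-0.52), a phosphatidate phosphatase, were lower. None of the 17 vesicle export genes was called at an adjusted p under 0.05.

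Over all tested genes, 7.89% were called higher and 7.28% lower. Of 12 tested genes of HDL formation none was higher and 2 were lower. These were Bmp1 (-0.30, edgeR adjusted p = 0.015), a protease that trims pro-apolipoprotein A-I, and Abcg1 (-0.84, 0.0287), a cholesterol exporter. Both calls were lost with DESeq2 and without DIO replicate 5, and 1 of them without DIO replicate 4 or DIO + DHA replicates 1 or 4. Lcat (-0.06, edgeR adjusted p = 0.726) and Pon1 (0.14, 0.147) were the most abundant of the rest. Of 20 tested lipoprotein receptor genes 2 were lower, Lrp1 (-0.40, edgeR adjusted p = 0.00438), a remnant receptor, and Mylip (-0.68, 0.0448), which marks the LDL receptor for degradation. The count fell to 1 without DIO replicate 1 or DIO + DHA replicates 1, 4 or 5. Sdc1 and Cd36, the most abundant, had adjusted p-values of 0.913 and 0.305 by edgeR.

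The lipoprotein lipase system held 12 tested genes, of which 2 were higher and 2 lower, against 7.89% and 7.28% of all tested genes. Lpl, the lipase itself, was at 35.5 ± 4.3 CPM in DIO (SD, n = 3) and 77.2 ± 8.56 CPM in DIO + DHA (SD, n = 5), a log2 fold change of 1.15 ± 0.11 (SE, edgeR adjusted p = 4.6e-13). It is also an adipocyte marker, and the adipocyte and muscle markers were higher in the same libraries. The part of those cells in the Lpl level was not tested. Angptl8, an inhibitor of the lipase, was higher (0.90), and Gpihbp1, which anchors the lipase to capillaries, was lower (-0.52).

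Among 40 tested regulators of apolipoprotein genes 4 were higher and 7 lower, against 7.89% and 7.28% of all tested genes. The median log2 fold change of the list was 0.01. Hnf4a, a nuclear receptor that drives many apolipoprotein genes, was at 241 ± 11 CPM in DIO (SD, n = 3) and 167 ± 10 CPM in DIO + DHA (SD, n = 5), a log2 fold change of -0.53 ± 0.07 (SE, edgeR adjusted p = 7.1e-08). Cebpb (-1.05), a factor of the acute phase response, was lower. Nr0b2 (1.21), a repressor of nuclear receptors, and Ppargc1a (2.04), a coactivator that skeletal muscle also expresses, were higher. Creb3l3, a factor known to act on Apoa4, and Rxra, the partner of many nuclear receptors, were the most abundant of those not called, with log2 fold changes of -0.01 ± 0.07 and -0.03 ± 0.07 (SE).

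**Figure D4:**
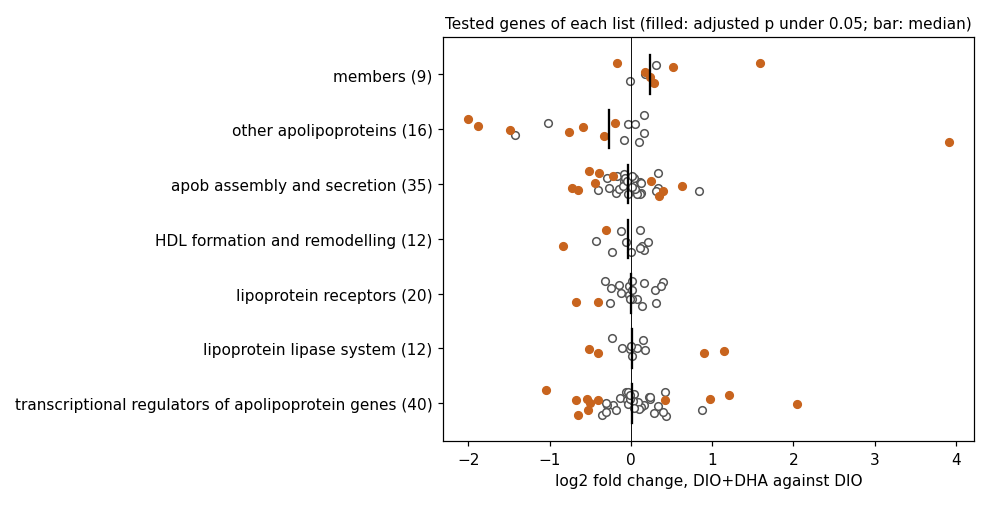
Log2 fold change of DIO + DHA against DIO (horizontal axis) for each tested gene of each list, with the number tested in parentheses, filled where the edgeR adjusted p was under 0.05, and a bar at the median. The members lie mostly to the right of 0 (median 0.23) and the other apolipoproteins to the left (median -0.27), with the other 5 medians between -0.04 and 0.01.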

How the data were processed

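Liver RNA of 8 mice was sequenced as poly(A) libraries enriched for transcript ends, following the study's methods. The authors trimmed and aligned the reads with STAR 2.7.9a and counted them per gene with featureCounts 1.6.0 on GENCODE M33 (GRCm39), per the file headers and the submitters' processing notes, and the deposited values are raw counts. Whether molecular identifiers were collapsed is not given in the sources used here, so counting errors given are for counting only. The labels name a separate mouse for each library.

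Gene names came from GENCODE M39 (56323 of 56884 IDs). Genes with fewer than 5 counts in over 50% of the libraries of each group were dropped, leaving 12412. Counts were scaled by TMM and tested with edgeR 4.0.16 (robust quasi-likelihood F test, Benjamini-Hochberg over all tested genes). The script was tested on simulated data, where estimates were close to the known answers. Calls missed many of the 2-fold changes over genes of all levels and most of the smaller ones. The test's pass mark, first set over all genes, was not met and was then set on genes of at least 10 CPM, where it was met. limma 3.58.1 and DESeq2 1.42.0 were alternatives (R 4.3.3). CPM used TMM library sizes, 95% intervals use the normal distribution, and ratios used exact permutation over 56 splits.

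All 10 members are named. From each list up to 4 called genes of smallest p and up to 2 of the most abundant not called are named, with called neighbours and the 3 genes most like a member. Apol6, enterocyte markers without counts, overlapping genes and the neighbours not called were named after their values were seen. A called gene of the lists is not reported here by name. The members and lists were chosen with earlier results of these data known.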

Additional observations from a re-analysis of the deposited data

How the results depend on the processing

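The calls of Apoa1, Apoa4 and Apoc3 held under all 11 other settings and all 8 fits that left out 1 library. The number of members called was 6 in the fit as reported, 3 at an adjusted p under 0.01, and between 3 and 6 when 1 library was left out (3 without DIO replicate 4). Apoc1, never called, changed sign with the replicate block (0.03) and ranged from -0.05 to 0.07 when 1 library was left out. With B above 0 in limma-voom, 5 genes of apolipoprotein B assembly, 6 regulators, 0 HDL genes and 0 receptors were called. HDL formation also had 0 calls with DESeq2, at an adjusted p under 0.01 and with the replicate block, and 0 to 2 when 1 library was left out. The receptors had 1 call with DESeq2, with the adjusted p of limma-voom, with no filter and at an adjusted p under 0.01, and 1 to 2 when 1 library was left out. Narrowing the window to 100 kb left 0 called neighbours of the chromosome 7 cluster, by its construction. Adjusting over the 4 ratios computed, added after seeing the data, let the differences of 1.07 and -0.28 pass. Over all genes, 1883 were called as reported, 860 at B above 0 and 1225 at an adjusted p under 0.01. The cause of the other changes was not tested.

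The replicate block left 5 members called, all higher. Apoe lost its call (-0.16, adjusted p = 0.0881). The labels name a separate mouse for each library and do not say that the numbers shared by the groups pair the samples. Deviations of same-numbered libraries correlated at -0.013, -0.013 and -0.011 over genes. These values show no large shared effect but cannot settle whether the samples were paired. Planned ratios with Apoc2 were not run, since it has libraries at 0 counts.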
